A study of Mus musculus with 2 samples.

Results

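Osteoclast-like cells were examined among the CD45+ leukocytes of TSA tumours. They were chosen by a score, the mean over Ctsk, Acp5, Atp6v0d2, Ocstamp and Slc9b2 of ln(1 + UMIs per 10000 UMIs of the cell), where a UMI (unique molecular identifier) marks 1 captured RNA molecule. The 5% of cells with the highest score, 310 of 6198, were taken over both libraries. Of these, 16 were left out for a UMI of Cd3e (a T cell receptor chain) or Ncr1 (an NK cell receptor), and 40 for 3 or more UMIs in all of the division genes Birc5, Top2a and Ube2c. This left 254 cells, 122 of the untreated and 132 of the NAM library. The score used these measured values, so the levels that set these cells against others are a description and carry no test.

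TSA cells come from a mammary tumour and were implanted under the skin of Balb/c mice. The control mice were untreated, and the other mice drank water with 0.5% NAM (nicotinamide, which is a vitamin B3) over 10 days, to ask what NAM altered in the immune infiltrate. CD45+ cells were enriched with magnetic beads and pooled from 3 mice per group, so that each group is 1 library. The effect of NAM and a difference between libraries therefore cannot be told apart, no p-value can be given, and the 95% intervals cover counting error only, not the spread between cells or mice.

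Osteoclasts are large cells of the monocyte lineage that form by fusion and dissolve bone. CSF1 and RANKL act through the receptors CSF1R and RANK, and RANK signalling induces the transcription factor NFATC1, which with MITF and PU.1 switches on the resorption genes. A mature osteoclast attaches through integrins, pumps protons onto the bone surface with the V-ATPase, and releases cathepsin K, tartrate-resistant acid phosphatase and MMP9 into the sealed acid space. The term osteoclast-like is used here for the RNA profile alone.

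Upstream sequences of 3 genes are shown, in which the letters of known osteoclast factor sites differ. Ctsk and Acp5 were high in osteoclast-like cells by the rule itself, and Oscar was far higher in them than in other cells. Each sequence runs 5′ to 3′ and covers the 250 bases before a RefSeq start site (GRCm38.p6). Capitals mark, on either strand, the letters CATGTG (an E-box that MITF can bind), TGGAAA (the NFAT core), GAGGAA (a PU.1 core) or TGANTCA (AP-1). Ctsk encodes cathepsin K, the main collagenase of osteoclasts, and its window is chr3:95498960-95499209 on the plus strand. Acp5 encodes tartrate-resistant acid phosphatase, and of its 3 start sites the one with matches is shown, chr9:22130599-22130848 on the minus strand. Oscar encodes a collagen receptor that costimulates osteoclast formation, was not used by the score, and has its window at chr7:3616158-3616407 on the minus strand. On the same build, the other genes of the rule span chr4:19876841-19922605 (Atp6v0d2, minus strand), chr2:165393760-165400405 (Ocstamp, minus) and chr3:135307700-135345387 (Slc9b2, plus), and Mmp9 spans chr2:164940780-164955850 (plus).
Ctsk: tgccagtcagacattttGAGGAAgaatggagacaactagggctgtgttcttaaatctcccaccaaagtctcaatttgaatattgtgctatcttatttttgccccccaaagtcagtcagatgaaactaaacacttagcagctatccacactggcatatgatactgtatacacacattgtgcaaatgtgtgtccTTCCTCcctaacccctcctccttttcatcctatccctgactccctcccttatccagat
Acp5: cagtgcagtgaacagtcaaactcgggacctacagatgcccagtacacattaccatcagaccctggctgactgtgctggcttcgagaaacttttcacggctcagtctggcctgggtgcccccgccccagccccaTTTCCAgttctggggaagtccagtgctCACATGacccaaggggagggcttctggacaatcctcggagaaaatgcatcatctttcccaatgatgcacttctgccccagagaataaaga
Oscar: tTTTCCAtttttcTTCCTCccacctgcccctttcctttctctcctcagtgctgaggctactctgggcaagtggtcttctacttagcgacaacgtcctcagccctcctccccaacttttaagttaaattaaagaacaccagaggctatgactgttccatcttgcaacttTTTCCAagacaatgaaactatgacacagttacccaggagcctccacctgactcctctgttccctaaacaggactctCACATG

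The Ctsk window held GAGGAA at 2 places, with first bases at -233 and -58 from the start site, and no CATGTG. The Acp5 window held 1 CATGTG at -90 and 1 TGGAAA at -117. In the Oscar window CATGTG stood at -6, TGGAAA at -249 and -82, and GAGGAA at -237. The windows of the other 2 Acp5 start sites and of Slc9b2 held none of these letters. Such matches are common, since CATGTG was in 12.3%, TGGAAA in 18.6%, GAGGAA in 23.3% and TGANTCA in 6.75% of all 32851 RefSeq windows. Of 23 score and mature osteoclast genes 15 had an entry, with 29 windows in all. CATGTG was in 3 of these windows (10.3%), TGGAAA in 5 (17.2%), GAGGAA in 5 (17.2%) and TGANTCA in 3 (10.3%). The matches describe letters only.

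The score had a separate upper peak, but the cut lay on a slope below it. The score at the cut was 0.900, chosen cells were most frequent at 3.2 to 3.4 (35 cells), and the bins between cut and peak were lowest at 2.0 to 2.2 (7 cells). A score of 2 or more was found in 180 of the 254 cells, and 74 lay between the cut and 2. Within 0.1 of the cut, 14 chosen cells lay above it and 19 other cells below it. The lowest chosen cell, untreated with a score of 0.910, had 0 Ctsk, 11 Acp5, 3 Atp6v0d2 and 5 Slc9b2 UMIs, with 190 UMIs of the macrophage lysozyme gene Lyz2. The first cell outside, also untreated with a score of 0.899, had 12 Ctsk and 1 Acp5 UMIs and none of the other 3 genes.

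**Figure D1:**
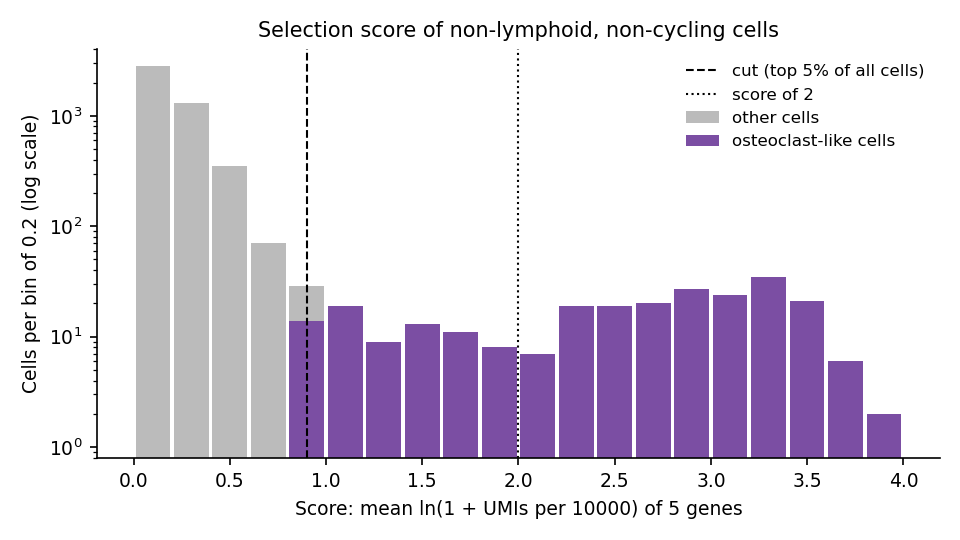
Number of cells without Cd3e, Ncr1 or division genes (vertical, log scale) in bins of the selection score (horizontal), with the chosen osteoclast-like cells in purple, other cells in grey, the cut of 0.900 dashed and a score of 2 dotted. Between the cut and the peak of 35 cells at 3.2 to 3.4 the chosen cells dip to 7 at 2.0 to 2.2.

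Osteoclast-like cells yielded more UMIs than the cells around them. Their median was 15870 UMIs in untreated and 15342.5 in NAM cells, against 9228 and 9256 in the 5214 other cells without Cd3e and Ncr1, called other non-lymphoid cells below. The 40 high-scoring cells left out for division genes are among these other cells, and 16 of the 40 scored 2 or more. The levels of other non-lymphoid cells below therefore include theirs. Osteoclast-like cells had a median of 3401.5 and 3310 genes per cell, and mitochondrial genes took a median of 2.81% and 3.27% of their UMIs. The libraries held 29161823 and 32090120 UMIs, of which 1982390 and 2081311 lay in osteoclast-like cells. Doublets (droplets that caught 2 cells) were not removed, and their part in these depths was not tested. The libraries shared 11 cell barcodes, 1 of them of an osteoclast-like cell.

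The summed RNA of macrophage genes was lower than in other cells but present. All 10 genes of the list had UMIs in osteoclast-like cells, with a summed level of 2894 and 2927 CPM (UMIs per 1000000) in untreated and NAM cells, against 17806 and 19212 CPM in other non-lymphoid cells. Cd68, a lysosomal protein gene, made up 1131 and 1204 CPM of the sum and Csf1r, the CSF1 receptor gene, 697 and 691 CPM, and both were higher than in other non-lymphoid cells (747 and 802 CPM for Cd68, 501 and 441 CPM for Csf1r). Per cell the sum ran from 6.36 to 181 UMIs per 10000 in untreated and from 8.57 to 156 in NAM osteoclast-like cells. The 3 C1q genes together, which encode a complement protein made by tissue macrophages, had medians of 4.05 and 3.86 UMIs per 10000, against 153 and 173 in other non-lymphoid cells. The lower quartile of those other cells was passed by 4 of 122 and 4 of 132 osteoclast-like cells. Markers of other lineages were near 0. T and NK genes summed to 16.1 and 19.2 CPM with Klrb1c at 0 (Cd3e and Ncr1, also in this list, are at 0 by the rule), B and plasma cell genes to 18.7 and 4.80 CPM with Ms4a1 at 0, neutrophil genes to 24.2 and 44.7 CPM with Ly6g and Camp at 0, and fibroblast and osteoblast genes to 13.6 and 16.3 CPM with Bglap and Alpl at 0. The part of macrophage RNA in the levels below was not tested.

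Osteoclast-like cells made up shares of the libraries whose intervals overlapped. They were 4.18% (3.48 to 4.96%, Clopper-Pearson) of untreated and 4.03% (3.38 to 4.76%) of NAM cells, a log2 ratio of -0.05 (-0.42 to 0.32). Of cells without Cd3e and Ncr1 they were 4.71% and 4.58%, a log2 ratio of -0.04 (-0.41 to 0.33). A score of 2 or more was reached by 82 of 122 untreated (67.2%, 58.1 to 75.4%) and 98 of 132 NAM cells (74.2%, 65.9 to 81.5%), and these intervals overlapped too.

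The genes of the rule set the selection, so their detection in the same cells is a description only. After each cell was thinned to 3000 UMIs, all 5 genes were detected in 37 of 122 untreated and 41 of 132 NAM cells, with 4 of them in another 37 and 44, whereas all 5 were detected in 1 of 2466 and 3 of 2748 other non-lymphoid cells. Ctsk ran from 0 through a median of 46.3 to 283 UMIs per 10000 in untreated cells and from 0 through 56.8 to 220.1 in NAM cells, and 19 of 122 and 15 of 132 cells had none. Acp5 ran from 0 through a median of 82.0 to 284 UMIs per 10000 in untreated cells and from 10.6 through 89.4 to 245 in NAM cells, and 1 cell had none. The ranges of the libraries overlapped for both genes. Atp6v0d2, the d2 subunit of the V-ATPase, had medians of 8.71 and 10.9 UMIs per 10000 in untreated and NAM cells. Ocstamp, a membrane protein needed for osteoclast fusion, had medians of 1.74 and 2.05, and Slc9b2, a sodium-proton exchanger of osteoclasts, of 4.49 and 4.92.

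Summed over cells, Ctsk was at 6214 and 7547 CPM in untreated and NAM osteoclast-like cells and at 66.2 and 55.1 CPM in other non-lymphoid cells. The share of cells with a Ctsk UMI outside the osteoclast-like cells was close to that in T cells, which are not known to use the gene. Thinned to 3000 UMIs, it was 7.58% (6.57 to 8.70%) of other non-lymphoid and 6.33% (3.59 to 10.2%) of Cd3e cells in the untreated library, against 73.8% of osteoclast-like cells. The unthinned shares were 20.1%, 17.7% and 84.4%, at median depths of 9228, 4968 and 15870 UMIs. In the NAM library the thinned shares were 6.77%, 5.69% and 83.3%. Acp5 (untreated 30.9% and 28.7%) and Atp6v0d2 (2.23% and 2.53%) were alike in other non-lymphoid and Cd3e cells. Such shares alone are not taken as expression, and the source of these UMIs was not tested. Single other non-lymphoid cells reached 81.9 (untreated) and 105 (NAM) Ctsk UMIs per 10000. Ocstamp and Slc9b2 differed in opposite directions. Ocstamp was in 2.27% (1.72 to 2.94%) of other non-lymphoid cells against 0 of 237 Cd3e cells, which allows up to 1.27% with a UMI (3 cells) at this thinned depth (unthinned 6.08% and 1.69%), and Slc9b2 in 1.18% (0.789 to 1.68%) against 3.80% (1.75 to 7.09%).

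Genes outside the rule were also higher. Across the 4828 genes with a mean level of 20 CPM or more, 475 (9.84%) were 2-fold or more higher and 565 (11.7%) 2-fold or more lower in osteoclast-like than in other non-lymphoid cells in both libraries. Of 18 further genes of mature osteoclasts 12 reached this level (the filter used below), of which 10 were 2-fold or more higher in both libraries and 0 lower. Their median log2 ratio was 2.60 in untreated and 3.04 in NAM cells, against 0.11 and 0.15 over all genes. A gene silent elsewhere could reach the level through osteoclast-like cells alone, so such counts describe the cells only.

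Mmp9, a gelatinase that osteoclasts release, was not part of the score. It ran from 0 through a median of 7.36 to 124 UMIs per 10000 in untreated cells and from 0 through 6.85 to 101 in NAM cells, and 25 of 122 and 16 of 132 cells had none. The ranges and medians of the libraries were close. Summed, Mmp9 stood at 1804 CPM (1746 to 1865) in untreated and 1761 CPM (1704 to 1819) in NAM cells, against 37.1 and 31.4 CPM in other non-lymphoid cells, log2 ratios of 5.60 and 5.81. In the 1108 cells highest in the macrophage genes Vcam1 and Dnase1l3 it was at 32.1 CPM, both libraries together.

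Among transcription factors of osteoclast formation, some were far above the other cells and some near them. Nfatc1, the master regulator, ran from 0 through a median of 2.76 to 9.54 UMIs per 10000 in untreated cells and from 0 through 2.78 to 8.93 in NAM cells, and 8 of 122 and 5 of 132 cells had none. Summed it was at 317 and 292 CPM against 27.3 and 21.9 CPM, log2 ratios of 3.54 and 3.73, while T cells, which also use it, had a thinned share of 13.5% against 63.1% of untreated osteoclast-like cells. Mitf, which acts on the acid phosphatase and cathepsin K genes, had log2 ratios of 2.68 and 2.86 in untreated and NAM cells. Ppargc1b, a coactivator of mitochondrial genes in osteoclasts, had 3.47 and 3.81, Prdm1, a repressor of genes that hold osteoclast formation back, 2.08 and 1.61, and the AP-1 gene Fosl2 1.55 and 1.37. Spi1, which encodes PU.1, was closer with 0.69 and 0.71. Fos (-0.19 and -0.43) and Jun (-0.29 and -0.47) were slightly below 0, and Junb was lower (-1.05 and -1.21). Of 20 receptors, adaptors and factors that drive osteoclast formation 18 passed the filter. Of these 7 were 2-fold higher in both libraries and 1, Junb, lower, against 9.84% and 11.7% of all genes tested.

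Most receptor genes differed less. Tnfrsf11a, which encodes RANK, was at 131 and 122 CPM against 49.7 and 43.4 CPM, log2 ratios of 1.40 and 1.49. Csf1r, the CSF1 receptor of all macrophages, was at 697 and 691 CPM against 501 and 441 CPM, 0.48 and 0.65. The adaptor genes Tyrobp (0.32 and 0.14) and Fcer1g (-0.92 and -1.07) and the receptor gene Trem2 (-0.01 and -0.23) were not 2-fold apart in both libraries. Oscar, whose upstream window is shown above, stood apart from these with 48.9 CPM (39.7 to 59.7) in untreated and 56.7 CPM (46.9 to 67.9) in NAM cells against 0.282 and 0.221 CPM, the latter from 7 and 6 UMIs, and log2 ratios of 7.35 and 7.89. Its UMIs lay in 28 of 122 untreated and 31 of 132 NAM cells. The RANKL gene Tnfsf11 had no UMI in osteoclast-like cells, which allows up to 1.51 and 1.44 CPM (3 UMIs per library), and 9 and 2 UMIs in other non-lymphoid cells.

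Genes that restrain osteoclast formation were mostly lower. Of 11 such genes 5 passed the filter, with median log2 ratios of -1.58 and -1.29. Of these 4 were 2-fold or more lower in both libraries and 0 higher, against 11.7% and 9.84% of all genes tested. Irf8, which holds Nfatc1 back, was at 38.3 and 31.7 CPM against 274 and 301 CPM, log2 ratios of -2.83 and -3.24. The inhibitory receptor gene Lilrb4a had -3.51 and -3.98. Id2 (-1.25 and -1.29) and Tnfaip3 (-1.58 and -1.17) were the other 2, while Nfkbia (-0.35 and -0.31) was not 2-fold lower.

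**Figure D2:**
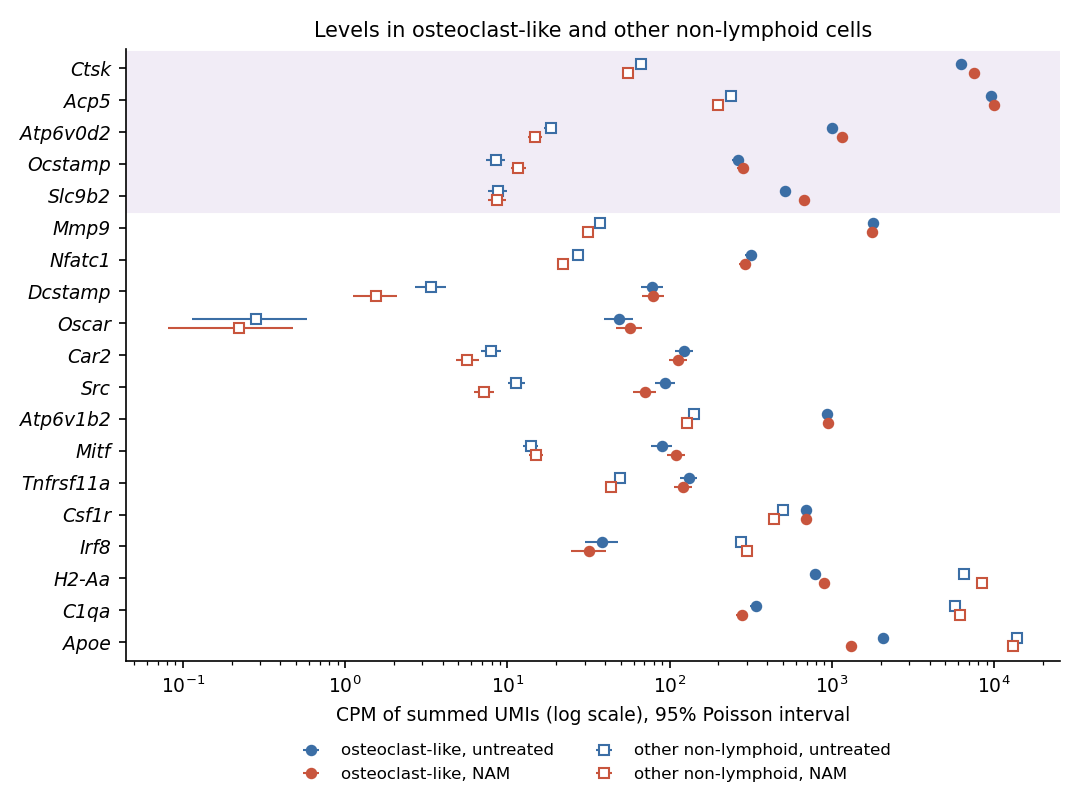
CPM of 19 genes (horizontal, log scale, with 95% Poisson intervals) in osteoclast-like cells (filled circles) and other non-lymphoid cells (open squares) of the untreated (blue) and NAM (red) libraries, the 5 genes of the rule shaded. Genes down to Csf1r (697 against 501 CPM untreated) lie to the right in osteoclast-like cells, and Irf8, H2-Aa, C1qa and Apoe to the left.

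Genes of acid secretion were higher as a group. Of 20 V-ATPase subunits and partners 18 passed the filter, with median log2 ratios of 1.59 and 1.69. Of these 13 were 2-fold or more higher in both libraries and 0 lower, against 9.84% and 11.7% of all genes tested. Atp6v1b2, a subunit of the ATP-splitting head, ran from 0 through a median of 8.54 to 26.0 UMIs per 10000 in untreated cells and from 0 through 8.25 to 26.0 in NAM cells. Its medians in other non-lymphoid cells were 1.07 and 0.913, and the ranges overlapped. Car2, carbonic anhydrase 2, which supplies the protons, was at 123 and 113 CPM against 7.94 and 5.67 CPM, log2 ratios of 3.95 and 4.31. Slc4a2, the anion exchanger that offsets the acid, had 2.75 and 3.11, and the chloride channel gene Clcn7 0.99 and 1.05.

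Forms of one subunit differed in direction. Tcirg1, the a subunit of the osteoclast ruffled border, was at 263 and 309 CPM against 83.6 and 92.8 CPM, log2 ratios of 1.65 and 1.74. Atp6v0a1, an a subunit of many cell types, was below the filter with 5.04 and 1.44 CPM against 27.9 and 23.7 CPM, log2 ratios of -2.40 and -3.82. Of the d subunits, Atp6v0d2 of the rule was at 1004 and 1152 CPM against 18.5 and 14.8 CPM. The general form Atp6v0d1 was at 175 and 188 CPM against 188 and 187 CPM, log2 ratios of -0.11 and 0.02.

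Mitochondrial and iron genes were higher too. Of 14 genes 13 passed the filter. Of these 8 were 2-fold or more higher in both libraries and 1 lower, against 9.84% and 11.7% of all genes tested. The lower gene was Fth1, a ferritin chain (-1.21 and -1.19). Tfrc, the transferrin receptor, was at 77.7 and 62.9 CPM against 9.83 and 6.81 CPM. Steap4, a metalloreductase, was at 49.4 and 41.8 CPM against 0.564 and 0.663 CPM. The respiration genes Atp5b (1.55 and 1.56), Sdhb (1.55 and 1.61) and Idh3a (1.90 and 2.11) and the creatine kinase gene Ckb (1.54 and 1.34) were among the 8. Of 16 glycolysis and hypoxia genes 14 passed. Of these 0 were 2-fold higher and 5 lower, against 9.84% and 11.7% of all genes tested. The lactate transporter gene Slc16a3 (-2.05 and -2.61) was among the 5, while the glycolytic gene Aldoa lay at 0.97 and 0.87.

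Fusion and attachment genes were mixed. Of 20 genes 16 passed the filter, 5 were 2-fold higher in both libraries and 3 lower, against 9.84% and 11.7% of all genes tested, with median log2 ratios of 0.02 and 0.12. Dcstamp, a membrane protein needed for fusion, was at 78.2 and 78.8 CPM against 3.38 and 1.55 CPM, and 50 of 122 untreated and 67 of 132 NAM cells had a UMI. Src, a kinase needed for the ruffled border, was at 93.8 and 70.6 CPM against 11.4 and 7.22 CPM. The integrin gene Itgav (1.73 and 1.86), the actin crosslinker gene Actn1 (2.29 and 2.48) and the tetraspanin gene Cd9 (1.73 and 1.42) were the other 3 higher genes. The lower ones were a second tetraspanin gene, Cd81 (-3.40 and -3.47), the integrin gene Itgb5 (-2.27 and -2.31) and the protease gene Adam8 (-1.06 and -1.81). Itgb3, the beta chain of the osteoclast vitronectin receptor, was under the filter with 21.7 and 16.8 CPM against 0.927 and 0.553 CPM. Siglec15, an osteoclast lectin, was detected in 2.46% and 3.79% of the cells (3 and 5 cells) after thinning to 3000 UMIs, against 0 of 2466 and 0 of 2748 other non-lymphoid cells, and in 13.1% and 11.4% against 0.0406% and 0.0728% before thinning. Calcr, the calcitonin receptor of mature osteoclasts, had a UMI in 0 of 122 untreated cells, which allows up to 2.46% of cells with a UMI (3 cells), and in 2.27% of NAM cells.

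Matrix proteases were split. Of 22 proteases and inhibitors 17 passed the filter. Of these 3 were 2-fold higher in both libraries and 9 lower, against 9.84% and 11.7% of all genes tested. The higher ones were Mmp9, the membrane-bound Mmp14 (1.78 and 1.80) and the cathepsin inhibitor gene Cstb (1.10 and 1.16). The macrophage elastase gene Mmp12 was at 7.06 and 10.1 CPM against 186 and 344 CPM. The lysosomal cathepsin genes Ctsb (-1.78 and -1.90), Ctsl (-1.84 and -2.63), Ctss (-2.02 and -2.29) and Ctsh (-2.99 and -3.71) were lower, unlike Ctsk of the same family.

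Antigen presentation genes of class II were low. Of 10 MHC class II genes 7 passed the filter and all 7 were 2-fold or more lower in both libraries, against 11.7% of all genes tested. The medians of the 7 were -2.39 and -2.42. Cd74, the invariant chain, ran from 0.725 through a median of 22.2 to 341 UMIs per 10000 in untreated cells and from 1.14 through 31.5 to 282 in NAM cells. Its medians in other non-lymphoid cells were 146 and 235, and the ranges overlapped. MHC class I genes differed less, with medians of -0.36 and -0.35. Of 11 tested 0 were 2-fold higher or lower, against 9.84% and 11.7% of all genes tested.

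Most macrophage genes were lower. Of all genes tested 11.7% were 2-fold lower in both libraries and 9.84% higher. Of the 9 genes of the macrophage list that passed the filter 7 were 2-fold lower in both libraries and 0 higher. Of the lists of Vcam1 and of Mmp12 macrophages all 6 and all 4 that passed were lower. Lyz2 had medians of 3.96 and 3.35 UMIs per 10000 against 131 and 134 in other non-lymphoid cells. Of 16 genes of lipid-laden macrophages 13 passed the filter and 7 were 2-fold lower in both libraries, among them Apoe (-2.75 and -3.32) and Spp1, which encodes osteopontin (-1.65 and -2.41). Lpl, lipoprotein lipase, was the 1 higher gene of that list (3.22 and 3.63). S100a4, which encodes a calcium-binding protein, had medians of 31.4 and 30.3 UMIs per 10000 against 1.16 and 1.07.

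**Figure D3:**
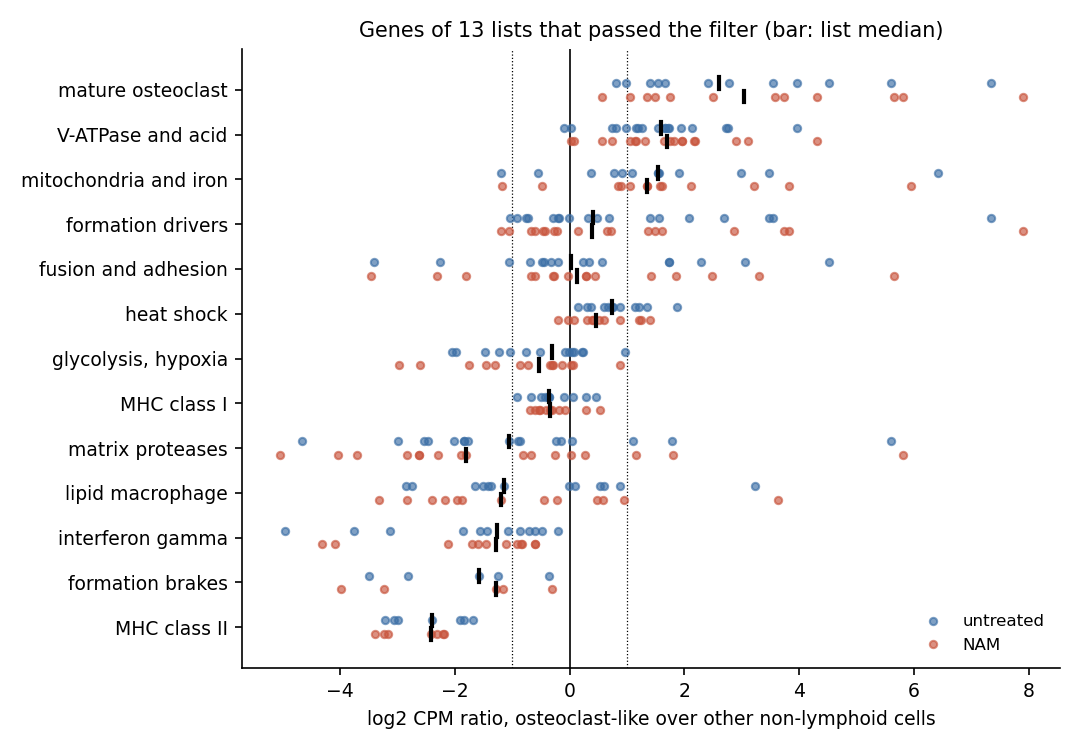
Log2 CPM ratio of osteoclast-like over other non-lymphoid cells (horizontal) for the genes of 13 lists that passed the filter, untreated in blue and NAM in red, with black bars for list medians and dotted lines at 2-fold. The mature osteoclast list has medians of 2.60 and 3.04, and MHC class II of -2.39 and -2.42.

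Among the genes with the highest ratios in both libraries, apart from those of the rule, were Mt3, Oscar, Rufy4, Steap4, Mmp9, Cyp2s1, Adck3, Kbtbd11, Spry1, Plekhf1 and Dcstamp. Mt3, a metallothionein known from brain, was at 363 and 153 CPM against 1.13 and 0.774 CPM, and 80 of 122 untreated and 89 of 132 NAM cells had none. Rufy4, a gene tied to autophagy, was at 86.8 and 108 CPM against 0.564 and 0.626 CPM. The lowest were Ly6c1, Tnfsf9, Ly6c2, Mgl2, Tnip3, Slc15a3, Mmp12 and Ccl12. Ly6c2, a surface marker of inflammatory monocytes, was at 6.05 and 2.88 CPM against 246 and 216 CPM, and the monocyte chemokine gene Ccl12 at 66.6 and 67.3 CPM against 1673 and 1512 CPM.

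Osteoclast-like cells were not uniform along the score. They were cut by score into 5 groups of 51, 51, 51, 51 and 50 cells, which held 24, 20, 28, 18 and 32 untreated cells, with group 1 the highest. Median depth ran from 16897 UMIs in group 2 to 14338 in group 4. Ctsk, which built the score, was at 14944 CPM in group 1, 5226 in group 3 and 184 in group 5. The genes below were not part of the score but come from the same cells, so their levels are a description.

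Several osteoclast genes followed the score, and so did Mt3, which was named by its ratio in these same cells. Mmp9 was at 4216, 2098, 1321, 595 and 115 CPM in groups 1 to 5. The fusion gene Dcstamp was at 164 CPM in group 1 and 42.2 in group 4 and had 0 UMIs in group 5. Oscar was at 169, 53.9 and 9.92 CPM in groups 1 to 3 and also had 0 UMIs in group 5. Mt3 was concentrated in groups 1 and 2, at 566 and 542 CPM, against 34.7, 16.3 and 2.76 CPM in the others. Ckb was at 1365 CPM in group 1 and 75.9 in group 5.

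The lists differed in how their genes followed the score. Over the 4140 genes with 100 or more UMIs that were not part of the rule, the 95% counting interval of the log2 ratio of group 1 over group 5 lay above 0 for 19.6% and below 0 for 24.5%. Of 12 such mature osteoclast genes it lay above 0 for 10 and below 0 for 0, and of 18 V-ATPase genes and partners above 0 for all 18. Of 17 drivers of osteoclast formation it lay above 0 for 8, below 0 for 2 and included 0 for 7. Among the drivers Ppargc1b was at 1.54 (0.85 to 2.33), Nfatc1 at 1.05 (0.78 to 1.34), Csf1r at 0.94 (0.76 to 1.12) and Fosl2 at 0.57 (0.30 to 0.85), while the intervals of Mitf at 0.33 (-0.15 to 0.84) and Tnfrsf11a at 0.34 (-0.08 to 0.77) included 0. Macrophage genes were split. Of 6 in the list with enough UMIs the interval lay below 0 for 4, the C1q genes and Ms4a7, and above 0 for Csf1r and Cd68, which was at 1754 CPM in group 1 and 618 in group 5. For all 7 MHC class II genes it lay below 0, with H2-Aa at 564 and 1490.1 CPM. Ccr2, the chemokine receptor of blood-derived monocytes, was at 2.25 CPM in group 1 and 128 in group 5, and Irf8 at 12.4 and 73.1. C1qa was at 166 and 516 CPM, against 8137 CPM in the Vcam1 Dnase1l3 cells.

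**Figure D4:**
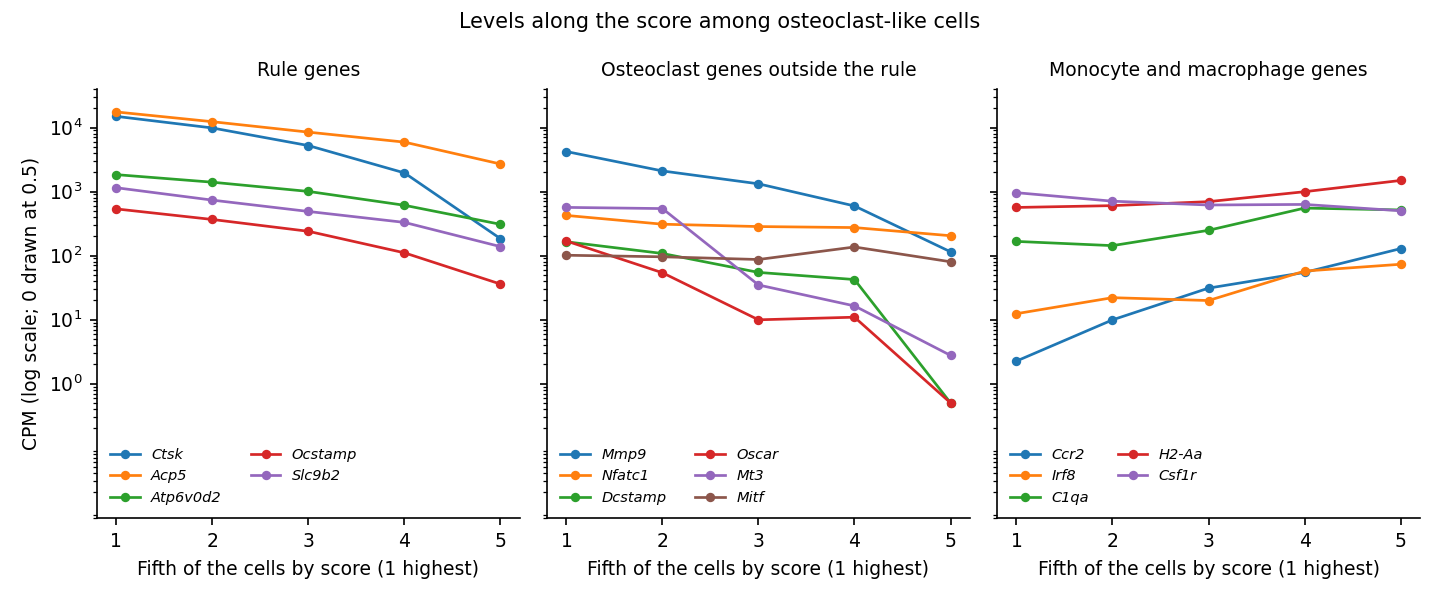
CPM (vertical, log scale, 0 drawn at 0.5) in 5 groups of the osteoclast-like cells from the highest score (1) to the lowest (5), for genes of the rule (left), osteoclast genes outside it with Mt3, named by its ratio (middle), and monocyte and macrophage genes (right). Mmp9 goes from 4216 to 115 CPM, Mitf from 101 to 80.0, and Ccr2 from 2.25 to 128.

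NAM and untreated osteoclast-like cells were compared over the 4145 genes with 100 or more UMIs in them. Of these, 55 (1.33%) were 1.5-fold or more higher and 134 (3.23%) 1.5-fold or more lower in NAM cells, around a median log2 ratio of 0.02, and 54.3% had a ratio above 0 and 45.7% below. The mature osteoclast genes lay close to this median, with 0 of 12 1.5-fold higher, 1 lower and a median of -0.05 against -0.22 in other non-lymphoid cells. Of the 12, 4 had a ratio above 0 and 8 below, and for 2 it was smaller than in other cells (44.4% of all genes). Of 17 drivers of osteoclast formation 0 were 1.5-fold higher and 2 lower, Jun (-0.93, -1.14 to -0.73) and Nfkb1 (-0.71, -1.08 to -0.35), with a median of -0.02. Mmp9 was at -0.04 (-0.10 to 0.03), Nfatc1 at -0.12 (-0.28 to 0.04), Dcstamp at 0.01 (-0.31 to 0.34) and Oscar at 0.21 (-0.19 to 0.62). The lower mature osteoclast gene was Jdp2, a factor that aids osteoclast formation, at 122 and 58.6 CPM in untreated and NAM cells (-1.05, -1.38 to -0.73). Its median per cell was 0.934 and 0.448 UMIs per 10000, the ranges overlapped, and it was also lower in other non-lymphoid cells (-1.85).

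Genes of the rule chose the cells, so their NAM ratios are a description. Of the untreated cells 67.2% scored 2 or more, and of the NAM cells 74.2%. Ctsk was at 0.28 (0.25 to 0.31), Slc9b2 at 0.38 (0.26 to 0.49), Atp6v0d2 at 0.20 (0.11 to 0.29), Ocstamp at 0.10 (-0.07 to 0.28) and Acp5 at 0.06 (0.04 to 0.09). In cells with a score of 2 or more, a bound chosen after the data were seen, Ctsk was at 0.11 (0.08 to 0.15), Acp5 at -0.04 (-0.07 to -0.01) and Mmp9 at -0.21 (-0.28 to -0.14). Of the V-ATPase genes and partners 15 of 18 had a ratio above 0, against 54.3% of all genes tested. The median of the 18 was 0.17, against 0.04 in other non-lymphoid cells, and 0 were 1.5-fold higher (1.33% of all genes). Atp6v1a (0.28, 0.14 to 0.43) and Atp6v1g1 (0.27, 0.21 to 0.34) were highest among them.

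Heat shock genes were lower with NAM in osteoclast-like and in other cells. All 12 had a ratio below 0 in osteoclast-like cells, against 45.7% of all genes tested. Of the 12, 7 were 1.5-fold or more lower, against 3.23% of all genes tested. The median of the 12 was -0.67, against -0.53 in other non-lymphoid cells. Hspa1a, an inducible HSP70, was at 1289.9 and 486 CPM in untreated and NAM cells (-1.41, -1.51 to -1.30), against -1.42 in other non-lymphoid cells. Hspb1, a small heat shock protein, was at 142 and 7.21 CPM (-4.26, -5.16 to -3.56), with UMIs in 25 of 122 untreated and 7 of 132 NAM cells, against -2.34. Of its untreated UMIs, 211 of 282 came from 5 cells.

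Of 11 MHC class I and 7 MHC class II genes tested, 0 were 1.5-fold higher or lower with NAM, against 1.33% and 3.23% of all genes tested. H2-D1, a classical MHC class I chain, ran from 13.4 through a median of 46.5 to 143 UMIs per 10000 in untreated cells and from 8.84 through 66.0 to 205 in NAM cells (0.55, 0.52 to 0.59). The ranges overlapped, and the ratio in other non-lymphoid cells was 0.46. Of the 7 MHC class II genes 6 had a ratio above 0 (54.3% of all genes), with a median of 0.24 against 0.42 in other non-lymphoid cells, and for all 7 the ratio was smaller in osteoclast-like cells (44.4% of all genes). Among them H2-Ab1 was at 0.28 (0.17 to 0.39) against 0.45, and Cd74 at 0.32 (0.27 to 0.36) against 0.35. The study named several MHC genes from these same libraries, so they are no independent evidence of a direction.

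Interferon genes were mixed. Of 9 interferon gamma response genes with enough UMIs 2 were 1.5-fold higher, Igtp and Iigp1, and 0 lower, against 1.33% and 3.23% of all genes tested, with a median of 0.54 against 0.45 in other non-lymphoid cells. Iigp1, a GTPase induced by interferon gamma, was at 9.08 and 43.7 CPM (2.24, 1.53 to 3.09), from 13 of 122 untreated and 25 of 132 NAM cells. Of its NAM UMIs, 58 of 91 came from 5 cells, and the ratio was 1.90 without the 5 highest cells of each library, 1.01 with Acp5 left out of the score and 0.76 with cells thinned before scoring. Of 10 type I interferon genes 2 were 1.5-fold higher (1.33% of all genes tested), Ifit3 (1.19, 0.58 to 1.86) and Rsad2 (1.14, 0.52 to 1.82), with a median of -0.02. Both rested on few cells. With the 5 cells highest in the gene left out of each library, an alternative added after the data were seen, Ifit3 was at 0.13 (-1.65 to 1.99) and Rsad2 at -1.19 (-3.90 to 0.82).

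Tnfsf8, which encodes the CD30 ligand, was higher in NAM osteoclast-like cells. It was at 18.2 and 67.7 CPM in untreated and NAM cells (1.88, 1.36 to 2.47), and 15 of 122 untreated and 33 of 132 NAM cells had a UMI. In other non-lymphoid cells it was at 5.80 and 4.09 CPM (-0.50). The 5 highest osteoclast-like cells of each library held 25 untreated and 88 NAM UMIs. With these cells left out the ratio was 2.13 (1.22 to 3.26). Atp1b3, a sodium pump subunit, was at 261 and 572 CPM (1.13, 0.98 to 1.28), against 0.86 in other non-lymphoid cells, and was detected in 99 of 122 untreated and 119 of 132 NAM cells. The other genes highest with NAM were Gstp1, Gt(ROSA)26Sor, Cep83, Phf14 and Nupr1, with ratios from 0.85 to 1.05. Of these, Nupr1 was under 1.5-fold in the top 10% of cells (0.36), Phf14 in the top 2.5% (0.46) and Cep83, just so, with cycling cells kept (0.58).

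Among the genes lowest with NAM were Hspb1, Hspa1b, Hsph1, Ccl3, Hspa1a, Hmox1, Txnip, Upf1 and Rhob. Hmox1, heme oxygenase 1, was at 103 and 38.9 CPM (-1.40, -1.80 to -1.03) in osteoclast-like cells, against -0.27 (-0.32 to -0.23) in other non-lymphoid cells. Of its 205 untreated UMIs 80 came from 5 cells. The ratio was -1.41 (-1.89 to -0.95) in cells with a score of 2 or more, and it turned to 0.24 with Acp5 left out of the score and to 0.35 without the 2.5% of cells with most UMIs. Txnip, a redox regulator, was at 79.2 and 29.8 CPM (-1.40, -1.86 to -0.98), against -0.19 in other non-lymphoid cells. The chemokine gene Ccl3 was at -1.57 (-2.14 to -1.05), at -0.95 (-1.61 to -0.32) in cells with a score of 2 or more, and under 1.5-fold with Ctsk (-0.51) or Acp5 (-0.39) left out of the score and without the 2.5% of cells with most UMIs (-0.11).

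Mt3 was lower with NAM. It was at 363 and 153 CPM (-1.25, -1.44 to -1.06), its highest cell had 47.2 and 28.4 UMIs per 10000, and 34.4% and 32.6% of cells had a UMI. Thinned to 3000 UMIs the shares were 26.2% (18.7 to 35.0%) and 18.2% (12.0 to 25.8%), against 5 of 237 and 7 of 334 Cd3e cells. In other non-lymphoid cells it had only 28 and 21 UMIs. The ratio in osteoclast-like cells minus that in other cells was -0.71 (-1.54 to 0.12), with an interval that included 0.

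**Figure D5:**
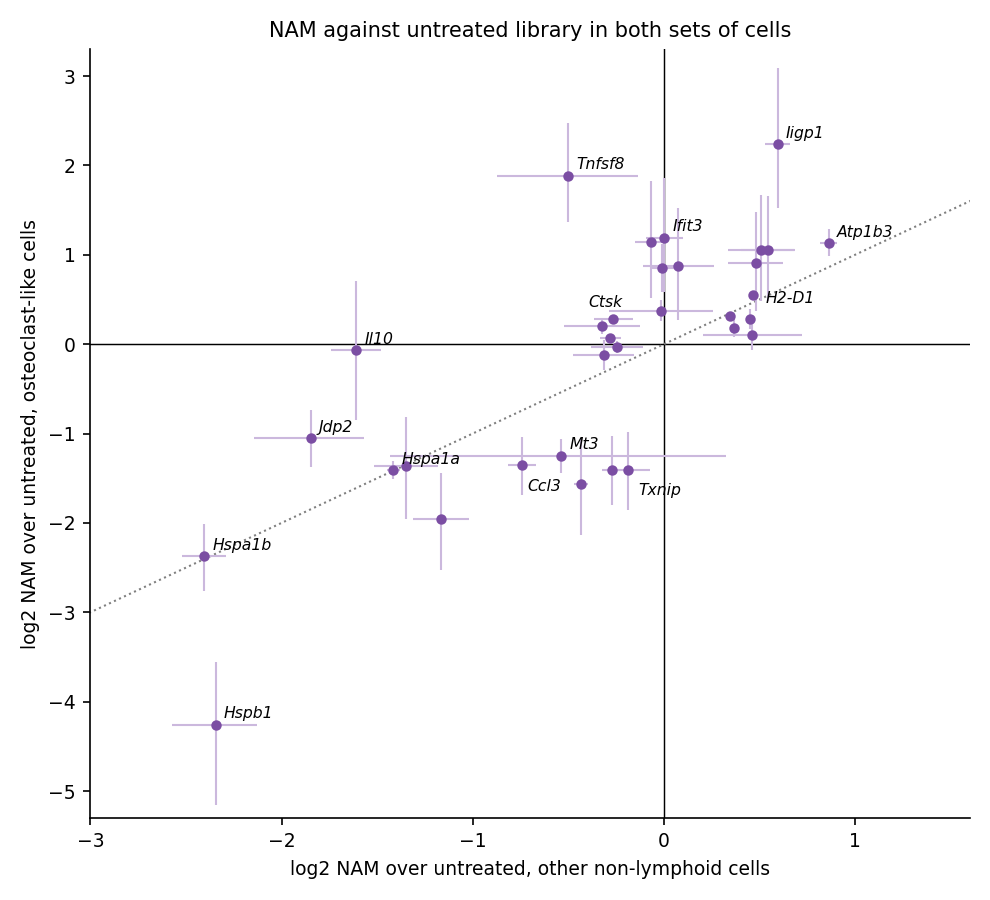
Log2 ratio of NAM over untreated in osteoclast-like cells (vertical) against that in other non-lymphoid cells (horizontal), with 95% counting intervals, for the genes named by the NAM ratio and selected osteoclast, MHC and cytokine genes; the dotted line marks equal ratios. Hspa1a (-1.41 and -1.42) lies on the line and Tnfsf8 (1.88 and -0.50) above it.

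Set against other non-lymphoid cells of the same libraries, the NAM ratio was 1.5-fold or more higher in osteoclast-like cells for 69 genes (1.66%) and lower for 64 (1.54%). For all 12 glycolysis and hypoxia genes with enough UMIs it was smaller in osteoclast-like cells, as for 44.4% of all genes, with a median of -0.02 against 0.25. With NAM, 0 of the 12 were 1.5-fold higher or lower in osteoclast-like cells (1.33% and 3.23% of all genes). Pgk1 (-0.03 against 0.54) and Slc16a3 (-0.15 against 0.40) were among them, and Ldha, lactate dehydrogenase, was at 0.12 (0.03 to 0.20) against 0.30 (0.27 to 0.32). Il10, an inhibitory cytokine that the study named, had under 100 UMIs in osteoclast-like cells and was at -0.07 (-0.85 to 0.71) against -1.61 (-1.74 to -1.48). In the top 10% of cells by score Il10 was at -1.64 in the high-scoring cells, and its difference from the others turned from 1.54 to -0.08. Both ratios use the same libraries, and no test of their differences was made.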

How the data were processed

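CD45+ cells of 1 untreated and 1 NAM library were measured by droplet 3′ single-cell RNA sequencing (v2 chemistry). The authors deposited a matrix of raw UMI counts from Cell Ranger 2.1.0 with mm10 as the genome; the annotation version is not given in the sources used here. All 6198 cells (3001 to 41658 UMIs) met the limits the study states for its cells, 1000 genes, 3000 UMIs and 10% mitochondrial UMIs. The members and gene lists were chosen with earlier results of these data known.

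Counts were summed over cells per library and given as CPM, with log2 ratios after adding 0.5 UMIs. Cells were compared over genes with a mean of 20 CPM or more in the 4 sums, at 2-fold in both libraries, and NAM over genes with 100 or more UMIs in osteoclast-like cells, at 1.5-fold. Intervals (95%) are exact Poisson, Clopper-Pearson or conditional binomial and cover counting error only. Macrophages for comparison were the top 20% of all cells by the same kind of score over Vcam1 and Dnase1l3, less osteoclast-like, lymphoid and cycling cells. Genes named by ratio were the 12 highest and 8 lowest 2-fold in both libraries (by the smaller ratio), and the 10 highest and 10 lowest with NAM whose interval left out 0, without rule, mitochondrial and unnamed genes. Some genes that these rules and the lists name are not reported here. Alternatives changed the cut, score genes, depth, scaling, filter and pseudocount. Python 3.11.15, NumPy 2.4.6, SciPy 1.17.1, pandas 2.3.3 and matplotlib 3.10.9 were used, and the steps were tested on simulated data.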

Additional observations from a re-analysis of the deposited data

Results flagged for a closer look

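Among the genes reported, Tnfsf8 differed 1.5-fold or more between untreated and NAM osteoclast-like cells and went the opposite way in other non-lymphoid cells, with both counting intervals leaving out 0. It had a log2 ratio of 1.88 (1.36 to 2.47) in osteoclast-like cells and of -0.50 (-0.88 to -0.14) in other non-lymphoid cells. The difference was not tested, since each group is 1 library and both sets of cells come from it. The ratio in osteoclast-like cells ran from 1.35 to 2.13 over the alternatives. Its difference from the ratio in other non-lymphoid cells was 2.39 (1.75 to 3.02). For the top 2.5% of cells the ratio was 1.35 and the difference 1.24 (0.50 to 1.99). That difference is smaller than the ratio, so other cells did not go the opposite way there.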

How the results depend on the processing

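No paired analysis was possible because each group is 1 library. Depth limits the calls to genes with 100 or more UMIs, and mice cannot be told apart within a library. The share of osteoclast-like cells had log2 ratios from -0.20 to 0.09 over all alternatives, within its counting interval. The ratios of osteoclast-like to other cells for the named genes moved by more than their interval in 191 comparisons and by less in 469. Sign changed in 4 of them, all for Atp6v0d1, whose interval included 0. Median-of-ratios scaling moved the median of all genes in that ratio from 0.11 and 0.15 to 0.03 and 0.04. The numbers of genes 2-fold higher and lower in osteoclast-like cells were 196 and 215 for the top 10% of cells, 4018 and 1657 without a filter on level, and 160 and 190 at 5 times the minimum. The numbers 1.5-fold higher and lower with NAM were 1917 and 2699 without a filter and 4 and 22 at 5 times the minimum, where fewer genes were tested. For the top 10% of cells 214 were lower, and without the 5 highest cells per gene, added after the data were seen, 93 were higher. For the NAM ratio in osteoclast-like minus other cells, 2173 and 2333 genes were higher and lower without a filter and 4 and 8 at 5 times the minimum, 109 were higher with a mean over cells, and 103 lower without the 2.5% of cells with most UMIs. Among NAM ratios whose interval left out 0, signs turned for Hmox1 with Acp5 left out of the score (0.24) and (0.35) without the 2.5% of cells with most UMIs, for Acp5 (-0.043) at a score of 2 or more, for Rsad2 (-1.19) without the 5 highest cells, and for the Il10 difference (-0.078) in the top 10%. Ratios whose interval included 0 changed sign in 3 alternatives for Mmp9 (to 0.079 in the top 10%) and in 1 each for Nfatc1 (0.0089) and Il10 (0.16). The cause was not tested.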

Other observations

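The 40 cells with a high score and division genes, left out by the rule, had part of the same profile. They held a median of 23296.5 UMIs, more than the 15713 of the osteoclast-like cells. They made up 23 of 145 high-scoring cells (15.9%, 10.3 to 22.8%) in the untreated and 17 of 149 (11.4%, 6.79 to 17.6%) in the NAM library, against 637 of 5174 (12.3%, 11.4 to 13.2%) of the cells outside the high scores. The bound of 3 division gene UMIs was not scaled to depth, so shares in cells of unlike depth are not directly comparable. With both libraries together, Nfatc1 was at 261 CPM in the 40 cells and 304 CPM in osteoclast-like cells, Mitf at 97.1 and 99.7 CPM, Car2 at 148 and 118 CPM, and Lpl at 326 and 289 CPM. C1qa was as low, at 312 and 309 CPM. Their median score was lower, 1.58 against 2.66, and so were genes that followed the score, with Mmp9 at 252 against 1782 CPM and Oscar at 1.08 against 52.9 CPM from 1 UMI.

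Of 18 genes of NAD metabolism, into which nicotinamide feeds, 7 passed the filter, 3 were 2-fold lower in osteoclast-like than in other non-lymphoid cells in both libraries and 0 higher, against 11.7% and 9.84% of all genes tested. The lower ones were Nampt, which makes NMN from nicotinamide (-1.14 and -1.45), and the NAD-consuming enzyme genes Cd38 (-3.49 and -3.11) and Bst1 (-1.90 and -1.90). With NAM, none of the 4 with enough UMIs was 1.5-fold higher or lower (1.33% and 3.23% of all genes), and Nampt was at -0.21 (-0.66 to 0.24). Haemoglobin genes summed to 19.2 and 33.2 CPM in untreated and NAM osteoclast-like cells and to 20.2 and 602 CPM in other non-lymphoid cells, where the median cell had 0 in both libraries and the highest NAM cell 6166 UMIs per 10000.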
